A study of Mus musculus with 12 samples.

Results

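Integrins and laminins were followed at the RNA level in mouse hearts at postnatal days 1 and 21 (P1 and P21), in animals labelled Csrp3 knockout and in wild type. The members were all protein-coding rows of the deposited table whose symbol is that of an integrin alpha subunit, an integrin beta subunit or a laminin chain. This gave 37 genes among 56748 rows: 18 integrin alpha subunits, 8 integrin beta subunits and 11 laminin chains, spread over 14 chromosomes. The 12 libraries fall into 4 groups of 3: labelled knockout at P21, wild type at P21, labelled knockout at P1 and wild type at P1. All are from whole heart, and the labels name no other allele, agent, strain or sex. How the Csrp3 allele was made is not stated, nor whether each of the 3 libraries came from its own animal. P-values therefore reflect how far libraries of a group scatter, and part of that scatter may be technical.

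Integrins are transmembrane receptors made of an alpha and a beta subunit. They bind the extracellular matrix outside the cell and, through adaptor proteins, the actin cytoskeleton inside it. Laminins are cross-shaped trimers of an alpha, a beta and a gamma chain and are main components of the basement membrane, the sheet of matrix that surrounds each cardiomyocyte and underlies endothelium. In striated muscle, integrins of the beta subunit Itgb1 sit at costamere and junction sites and carry force between the sarcomere and the matrix.

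Csrp3, which encodes a LIM protein of striated muscle, was read in every library. It was at 671, 1112 and 926 FPKM (fragments per kilobase of gene after scaling by an effective library size) in the P21 libraries labelled knockout and at 1068, 1397 and 572 FPKM in wild-type P21 libraries. At P1 it was at 168, 94.3 and 147 FPKM in the libraries labelled knockout and at 183, 179 and 238 FPKM in wild type. Csrp3 RNA was thus present in all 6 libraries labelled knockout. Its genotype ranges overlapped at P21 and did not at P1, where the libraries labelled knockout were lower, and these values do not check the genotype; the sources used here do not give the deleted part of the gene. Reads in genes ran from 9.67 to 15.9 M per library. The effective library size behind the deposited FPKM was 1.14 to 1.17 times these reads in P1 libraries and 0.605 to 0.944 times in P21 libraries. The scaling of the deposited values thus differs between the ages. Wild-type P21 libraries 1 and 2, whose names alone end in a further letter, had 10.2 and 9.67 M reads and 17344 and 15811 genes above 0, against 18348 to 20208 in the other P21 libraries. Wild-type age calls of the members and of the gene lists, and the P21 genotype differences described below, are also given without them. Markers of the labelled tissue were present: 8 cardiomyocyte genes summed to between 25020 and 28310 FPKM in P21 libraries labelled knockout, 22010 and 33290 in wild-type P21, 9361 and 13470 in P1 libraries labelled knockout and 9256 and 12230 in wild-type P1.

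Of the 37 members, 21 reached 1 FPKM in at least 3 libraries and were tested: 8 integrin alpha subunits, 5 integrin beta subunits and 8 laminin chains. A member that reaches this level only in the group where it is high had to differ, so counts over the 21 do not stand for the 37. Itgb6, described below, reached it in P21 libraries alone. Itgb2 met the requirement only through P21 libraries, and Itga8 and Itgb3 only through P1 libraries, at the age where each is higher. Changes are log2 differences of group means on the log2(FPKM + 0.5) scale from limma, with the standard error (SE). A member was called at a Benjamini-Hochberg adjusted p under 0.05 over all 13537 genes tested. Calls and non-calls are those of the deposited scale unless another scale is named.

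**Figure D1:**
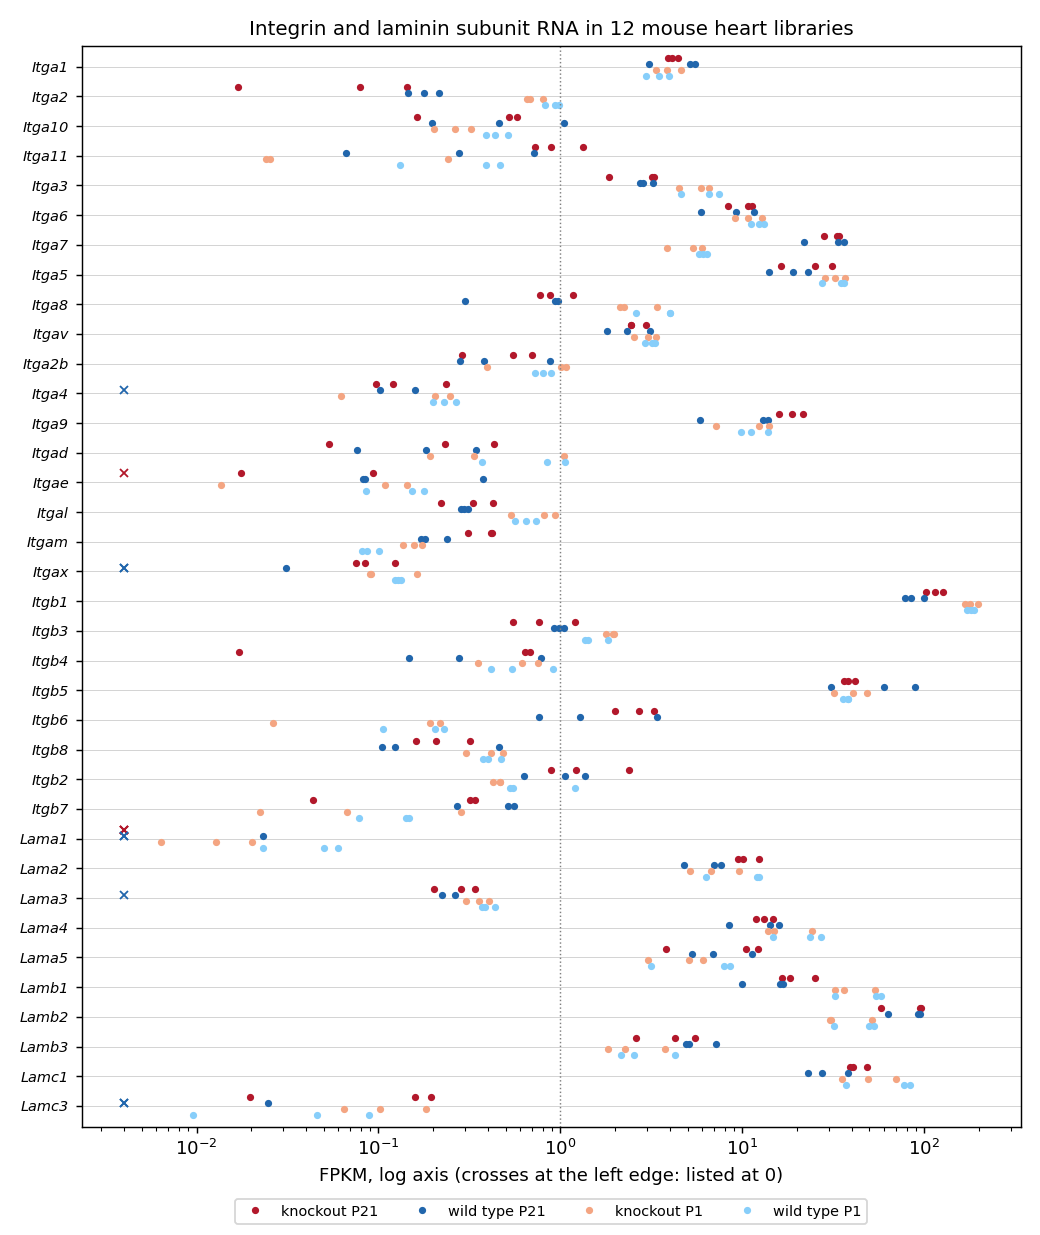
FPKM of 36 of the 37 members in each library on a log axis, coloured by group, with the dotted line at 1 FPKM and crosses for values listed at 0. Itgb1 lies highest in the P1 libraries, and 16 members lie below the level needed for a test.

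The ages differed in many members and in both directions. P21 against P1 called 9 of the 21 in hearts labelled knockout, 4 higher and 5 lower, where 25.0% of all genes tested were called (11.8% higher and 13.2% lower). It called 10 of the 21 in wild type, 4 higher and 6 lower, where 44.9% of all genes were called (21.5% higher and 23.3% lower). The share of members called was therefore near that of all genes in wild type and above it in hearts labelled knockout, with no test of that difference. The median change of the 21 members was -0.04 in hearts labelled knockout, against -0.02 for all genes, and -0.34 in wild type, against -0.04 for all genes. Without wild-type P21 libraries 1 and 2, wild type had 2 members called higher and 3 lower, where 22.2% of all genes were called, and the median change of the members was again -0.34. Groups did not overlap for 10 of the 21 in hearts labelled knockout, where this held for 47.4% of all genes, and for 10 in wild type, where it held for 51.9%. These are whole-tissue values, in which fewer cells of a type and less RNA per cell cannot be told apart.

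Among the laminin-binding integrin subunits, Itga7 rose with age in both genotypes and Itga3 fell. Itga7 is the alpha subunit of the main laminin receptor of mature striated muscle, and it lies on chromosome 10 from 128769645 to 128794155 as the table gives it. It was at 34.1, 28.2 and 33.4 FPKM in P21 libraries labelled knockout, 22.0, 36.5 and 33.5 FPKM in wild-type P21, 3.86, 5.99 and 5.35 FPKM in P1 libraries labelled knockout and 5.80, 6.44 and 6.06 FPKM in wild-type P1. Every P21 library was above every P1 library. On the deposited scale the log2 change was 2.56 (SE 0.21), a 5.88-fold rise, in hearts labelled knockout (limma adjusted p = 2.2e-05). It was 2.21 (SE 0.21), a 4.62-fold rise, in wild type (limma adjusted p = 3.7e-05). Its size varied over the 22 alternatives described below, from 1.965 to 2.676 in hearts labelled knockout and from 1.132 to 2.427 in wild type. The wild-type change was 2.37 without libraries 1 and 2 of its P21 group (adjusted p = 0.00027).

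Itga3, a laminin receptor subunit best known from epithelia, was at 3.20, 1.86 and 3.29 FPKM in P21 libraries labelled knockout and 3.23, 2.76 and 2.86 FPKM in wild-type P21. At P1 it was at 5.90, 6.59 and 4.51 FPKM in libraries labelled knockout and 7.44, 6.55 and 4.61 FPKM in wild type. It fell by 0.93 (SE 0.23) on the log2 scale in hearts labelled knockout (limma adjusted p = 0.014) and by 0.94 (SE 0.23) in wild type (adjusted p = 0.0076), where the call did not remain without wild-type P21 libraries 1 and 2 (adjusted p = 0.065). Itga6, a further laminin receptor subunit, was not called: it averaged 10.1 ± 1.56 FPKM in P21 libraries labelled knockout, 8.91 ± 2.83 in wild-type P21, 10.9 ± 1.90 in P1 libraries labelled knockout and 12.2 ± 0.967 in wild-type P1 (SD, n = 3 each). Within a library, the ratio of Itga7 to Itga6 was 2.95 to 3.36 in P21 libraries labelled knockout and 2.89 to 3.97 in wild-type P21, against 0.414 to 0.556 in P1 libraries labelled knockout and 0.470 to 0.542 in wild-type P1. Itga7 RNA was thus above Itga6 RNA per gene length in all 6 P21 libraries and below it in all 6 P1 libraries.

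Among the beta subunits, Itgb1 fell and Itgb6 rose with age in both genotypes. Itgb1, the common partner of the laminin, collagen and fibronectin receptors, had the highest mean FPKM of all 37 members and lies on chromosome 8 from 129412135 to 129459681 as the table gives it. It was at 102, 127 and 115 FPKM in P21 libraries labelled knockout, 84.5, 78.7 and 100.4 FPKM in wild-type P21, 178, 167 and 197 FPKM in P1 libraries labelled knockout and 181, 188 and 173 FPKM in wild-type P1. The P21 and P1 libraries did not overlap in either genotype. The log2 changes were -0.66 (SE 0.20) in hearts labelled knockout (limma adjusted p = 0.031) and -1.04 (SE 0.20) in wild type (adjusted p = 0.0018; 0.026 without wild-type P21 libraries 1 and 2). The call in hearts labelled knockout was lost, with adjusted p up to 0.12, when any of 7 libraries was left out: P1 libraries 1, 2 and 3 and P21 libraries 1 and 3 of that genotype, and wild-type P1 libraries 1 and 2, which share the estimate of spread.

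Itgb6, which joins Itgav to form a receptor that activates latent TGF-beta, lies on chromosome 2 from 60428636 to 60552987 as the table gives it. It was at 3.28, 2.71 and 1.99 FPKM in P21 libraries labelled knockout, 0.762, 1.27 and 3.39 FPKM in wild-type P21, 0.0262, 0.218 and 0.193 FPKM in P1 libraries labelled knockout and 0.228, 0.106 and 0.204 FPKM in wild-type P1. All P21 libraries were above all P1 libraries, the P1 values rest on 3 to 30 reads each, and wild-type P21 libraries 1 and 2 were the lowest at P21. Itgb6 reached 1 FPKM in 5 libraries, all at P21, so it was tested only through the age where it is high. Its age calls are therefore descriptive. The rise was 2.28 (SE 0.37) in hearts labelled knockout (limma adjusted p = 0.0013) and 1.60 (SE 0.37) in wild type (adjusted p = 0.0052), and 2.52 in wild type without libraries 1 and 2 (adjusted p = 0.0014).

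Itgb3, a partner of Itgav and of the platelet subunit Itga2b, was at 0.764, 0.551 and 1.20 FPKM in P21 libraries labelled knockout and 1.95, 1.97 and 1.78 FPKM in the matching P1 libraries. It fell by 0.87 (SE 0.21) on the log2 scale there (limma adjusted p = 0.012). Among P21 libraries, only wild-type library 2 and library 3 labelled knockout reached 1 FPKM. Itgb3 was thus tested only through P1, where it is high, and its age call is descriptive. In wild type it averaged 0.985 ± 0.0585 FPKM at P21 and 1.54 ± 0.249 FPKM at P1 (SD, n = 3 each), a change of -0.45 (SE 0.21) that was not called (adjusted p = 0.11). Itgb5, the vitronectin receptor partner of Itgav, was second among the beta subunits. It was at 38.2, 41.7 and 36.3 FPKM in P21 libraries labelled knockout, 89.5, 60.5 and 30.9 FPKM in wild-type P21, 48.3, 40.6 and 31.9 FPKM in P1 libraries labelled knockout and 37.9, 37.9 and 35.6 FPKM in wild-type P1. Wild-type P21 libraries 1 and 2 were the highest of all 12, and no contrast called it. The share of all integrin beta FPKM that was Itgb1 was 69.8 to 73.2% in P21 libraries labelled knockout and 47.7 to 72.5% in wild-type P21, against 77.5 to 84.8% in P1 libraries labelled knockout and 81.0 to 82.1% in wild-type P1.

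Among the subunits that bind RGD sequences (arginine, glycine and aspartate), Itga8 fell with age in both genotypes. Itga8 binds nephronectin and fibronectin and was at 1.17, 0.768 and 0.875 FPKM in P21 libraries labelled knockout, 0.298, 0.929 and 0.976 FPKM in wild-type P21, 2.24, 3.40 and 2.14 FPKM in P1 libraries labelled knockout and 4.01, 3.99 and 2.59 FPKM in wild-type P1. The 6 P21 libraries lay below the 6 P1 libraries. Among P21 libraries, only library 1 labelled knockout reached 1 FPKM. Itga8 was thus tested only through P1, where it is high, and its age calls are descriptive. The changes were -1.09 (SE 0.28) in hearts labelled knockout (limma adjusted p = 0.016) and -1.74 (SE 0.28) in wild type (adjusted p = 0.00076; 0.012 without wild-type P21 libraries 1 and 2).

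Itga5, the alpha subunit of the main fibronectin receptor, was at 25.2, 16.2 and 31.3 FPKM in P21 libraries labelled knockout, 19.0, 14.0 and 23.1 FPKM in wild-type P21, 28.6, 36.5 and 32.2 FPKM in P1 libraries labelled knockout and 36.1, 34.9 and 27.4 FPKM in wild-type P1. It fell in wild type, with a change of -0.82 (SE 0.26; limma adjusted p = 0.023), but was not called without wild-type P21 libraries 1 and 2 (adjusted p = 0.31). In hearts labelled knockout the change was -0.45 (SE 0.26; adjusted p = 0.22), and its groups overlapped. Itga7 to Itga5 ratios were 1.07 to 1.74 in P21 libraries labelled knockout and 1.16 to 2.61 in wild-type P21, against 0.135 to 0.166 in P1 libraries labelled knockout and 0.161 to 0.221 in wild-type P1. Itgav, which pairs with several beta subunits, stayed between 1.81 and 3.34 FPKM in all 12 libraries and was not called.

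**Figure D2:**
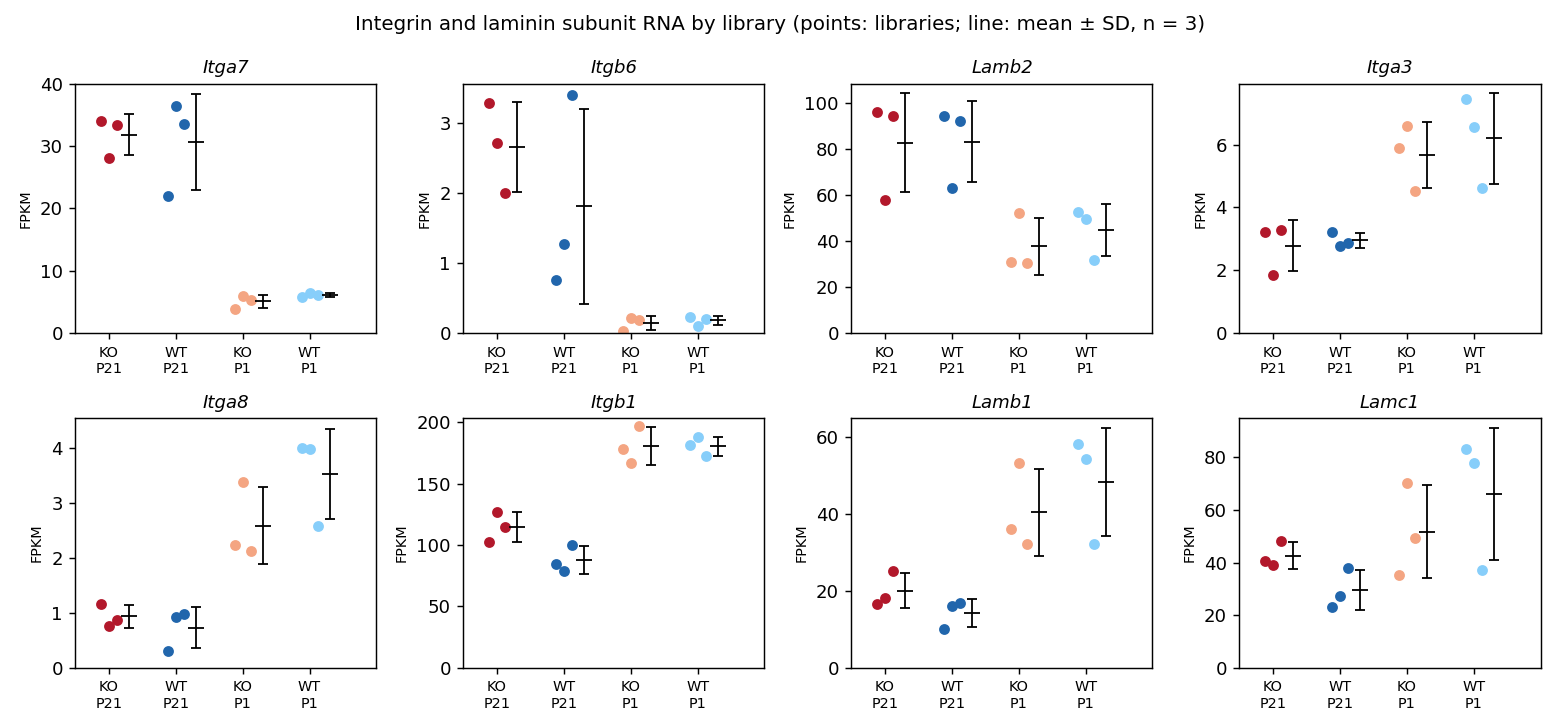
FPKM of 8 members in each library by group, with the mean and SD of 3 libraries. Itga7, Itgb6 and Lamb2 lie higher at P21 on the deposited scale, and Itga3, Itga8, Itgb1 and Lamb1 lie lower at P21, in both genotypes.

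The laminin beta chains exchanged rank with age. Lamb1 and Lamb2 are alternative beta chains of the laminin trimer, and Lamb2 is known from mature basement membranes of muscle synapse and kidney. The bases before their annotated starts, and those of Itgb1 and Itgb6, are shown as examples from members with age results in this report. RefSeq held no such stretch for Itga7. Each stretch is the 250 bases upstream of the RefSeq start in GRCm38.p6, written 5′ to 3′ on the gene's strand, with capitals for the GC box (GGGCGG, searched on both strands). The windows are chr9:108479612-108479861 for Lamb2 (plus strand), chr12:31265043-31265292 for Lamb1 (plus strand), chr8:128685404-128685653 for Itgb1 (plus strand) and chr2:60722604-60722853 for Itgb6 (minus strand).
Lamb2: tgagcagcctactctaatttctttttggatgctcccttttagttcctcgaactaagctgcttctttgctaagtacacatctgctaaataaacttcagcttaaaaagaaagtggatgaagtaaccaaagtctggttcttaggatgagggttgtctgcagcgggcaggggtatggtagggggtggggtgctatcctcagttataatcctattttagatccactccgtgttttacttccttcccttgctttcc
Lamb1: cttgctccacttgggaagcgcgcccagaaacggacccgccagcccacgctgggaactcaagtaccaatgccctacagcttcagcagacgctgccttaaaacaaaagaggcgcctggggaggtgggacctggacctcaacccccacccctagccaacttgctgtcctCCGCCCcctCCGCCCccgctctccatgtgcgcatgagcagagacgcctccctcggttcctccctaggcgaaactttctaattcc
Itgb1: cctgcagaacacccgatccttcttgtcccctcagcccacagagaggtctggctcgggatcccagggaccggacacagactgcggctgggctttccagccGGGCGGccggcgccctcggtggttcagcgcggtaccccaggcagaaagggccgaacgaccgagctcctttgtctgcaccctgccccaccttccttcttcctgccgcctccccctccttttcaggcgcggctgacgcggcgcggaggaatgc
Itgb6: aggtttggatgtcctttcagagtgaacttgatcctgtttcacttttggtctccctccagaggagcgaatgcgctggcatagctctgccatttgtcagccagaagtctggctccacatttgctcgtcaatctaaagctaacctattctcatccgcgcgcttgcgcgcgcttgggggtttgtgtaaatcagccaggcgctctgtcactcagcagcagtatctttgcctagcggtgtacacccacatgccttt

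The GC box occurred 2 times before Lamb1, 1 time before Itgb1 and 0 times before Lamb2 and Itgb6. It occurred in 32.7% of all 32851 RefSeq windows of this length. The share of G and C was 43.6% before Lamb2, 62% before Lamb1, 68% before Itgb1 and 52% before Itgb6, against a median of 52.4% over all windows. The E-box, CANNTG, occurred 1 time before Lamb2, 2 times before Lamb1, 3 times before Itgb6 and 0 times before Itgb1, and in 66.2% of all windows. The core promoter element TATAAA (12.4% of all windows), the AP-1 site TGANTCA (6.75%), the letters AGATAA read by GATA factors (9.99%), the CArG box (1.47%) and the MEF2 site (2.92%) lay in none of these 4 windows. Both strands were searched, and matches may overlap. A match is a description of letters, and RefSeq held such a window for 23 of the 37 members.

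Lamb2 lies on chromosome 9 from 108356935 to 108367729 as the table gives it. It was at 96.2, 57.8 and 94.3 FPKM in P21 libraries labelled knockout, 94.4, 62.9 and 92.0 FPKM in wild-type P21, 30.8, 52.0 and 30.3 FPKM in P1 libraries labelled knockout and 52.8, 49.5 and 31.9 FPKM in wild-type P1. Every P21 library was above every P1 library, by a narrow margin for library 2 of each P21 group. The log2 change was 1.13 (SE 0.30) in hearts labelled knockout (limma adjusted p = 0.019) and 0.90 (SE 0.30) in wild type (adjusted p = 0.032; 0.091 without wild-type P21 libraries 1 and 2). The wild-type direction depends on the scale: it was -0.24 after rescaling to TPM and -0.10 after rescaling without mitochondrial and top 20 genes, where the median of all genes was at -1.10 and -0.89. In hearts labelled knockout it was 0.47 and 0.66 on these scales and was not called (adjusted p = 0.37 and 0.27).

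Lamb1, on chromosome 12 from 31315233 to 31379643 as the table gives it, was at 16.6, 18.3 and 25.2 FPKM in P21 libraries labelled knockout, 9.98, 16.1 and 16.8 FPKM in wild-type P21, 36.0, 53.4 and 32.2 FPKM in P1 libraries labelled knockout and 58.3, 54.4 and 32.2 FPKM in wild-type P1. No P21 library reached the lowest P1 library. The changes were -0.99 (SE 0.29) in hearts labelled knockout (limma adjusted p = 0.030) and -1.71 (SE 0.29) in wild type (adjusted p = 0.0011; 0.025 without wild-type P21 libraries 1 and 2). The call in hearts labelled knockout was lost in 5 of 22 alternatives: with no filter on low values (adjusted p = 0.070), and without P1 library 1 or 2 or P21 library 1 or 2 of that genotype (adjusted p up to 0.12).

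The ratio of Lamb2 to Lamb1 within a library is free of the scaling between libraries. It was 5.80, 3.16 and 3.74 in P21 libraries labelled knockout and 9.46, 3.92 and 5.48 in wild-type P21, against 0.856, 0.973 and 0.941 in P1 libraries labelled knockout and 0.906, 0.910 and 0.991 in wild-type P1. Lamb2 RNA was thus above Lamb1 RNA per gene length in all 6 P21 libraries and slightly below it in all 6 P1 libraries. As a share of all laminin beta FPKM, Lamb2 made up 71.9 to 83.4% in P21 libraries labelled knockout and 73.0 to 86.2% in wild-type P21, against 43.7 to 48.3% in P1 libraries labelled knockout and 46.5 to 46.7% in wild-type P1. The ratios in this report were chosen after their values were seen and carry no test.

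**Figure D3:**
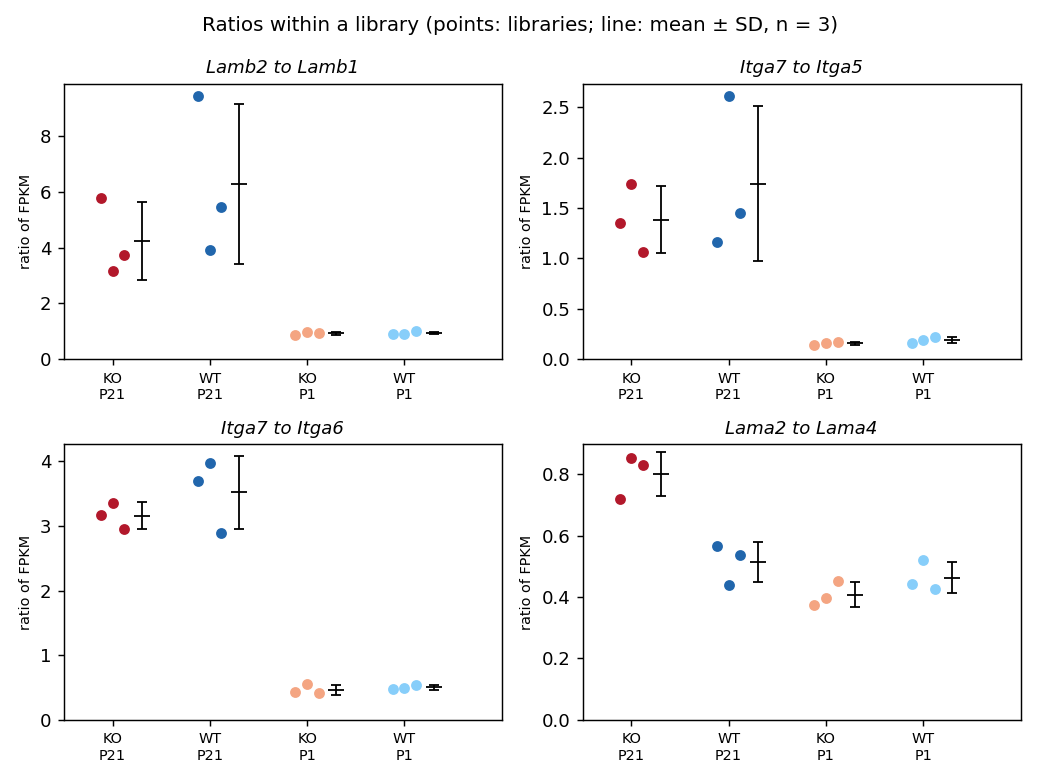
Ratios of FPKM between 2 members within each library, by group, with the mean and SD of 3 libraries. Lamb2 to Lamb1, Itga7 to Itga5 and Itga7 to Itga6 lie higher in every P21 library than in every P1 library, and Lama2 to Lama4 lies highest in P21 libraries labelled knockout, at 0.719 to 0.853.

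Lamb3, the beta chain of an epithelial laminin, was at 2.61, 4.28 and 5.53 FPKM in P21 libraries labelled knockout, 5.11, 7.22 and 4.89 FPKM in wild-type P21, 3.76, 2.27 and 1.84 FPKM in P1 libraries labelled knockout and 2.55, 2.16 and 4.26 FPKM in wild-type P1. It rose in wild type by 0.87 (SE 0.31; limma adjusted p = 0.041) but was not called without wild-type P21 libraries 1 and 2 (adjusted p = 0.31) or in hearts labelled knockout (0.57, SE 0.31, adjusted p = 0.21). On the same 2 rescalings its wild-type change was -0.16 and -0.025. Lamb3 overlaps G0s2, a lipolysis inhibitor gene on the opposite strand, over 1057 bases. G0s2 rose in wild type as well, by 2.90 (SE 0.53; limma adjusted p = 0.0015). The sources used here do not say whether counting was by strand, so reads of these genes in the overlap cannot be told apart.

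Fewer gamma and alpha chains were called. Lamc1, the gamma chain of most laminins, was at 40.6, 39.2 and 48.4 FPKM in P21 libraries labelled knockout, 23.1, 27.4 and 38.0 FPKM in wild-type P21, 35.4, 70.4 and 49.4 FPKM in P1 libraries labelled knockout and 83.4, 77.9 and 37.3 FPKM in wild-type P1. It fell in wild type, with a change of -1.10 (SE 0.33; limma adjusted p = 0.020), although wild-type P1 library 3 lay within the P21 range, and the call was lost without wild-type P21 libraries 1 and 2 (adjusted p = 0.30). In hearts labelled knockout the change was -0.22 (SE 0.33; adjusted p = 0.67).

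None of the alpha chains was called with age on the deposited scale. Under either rescaling more members were called lower in wild type, as given below, and those are not listed by name. Lama4, known from vessel basement membrane, had the highest mean of them, at 13.3 ± 1.47 FPKM in P21 libraries labelled knockout, 12.9 ± 3.94 in wild-type P21, 17.6 ± 5.64 in P1 libraries labelled knockout and 21.8 ± 6.36 in wild-type P1 (SD, n = 3 each). Its change was -0.35 (SE 0.29; limma adjusted p = 0.42) in hearts labelled knockout and -0.75 (SE 0.29; adjusted p = 0.058) in wild type. Lama2, the muscle laminin chain whose loss causes a muscular dystrophy, changed by 0.57 (SE 0.29; adjusted p = 0.17) and -0.59 (SE 0.29; adjusted p = 0.11) in the same order. Lama5, a chain of many adult tissues, averaged 8.83 ± 4.41 FPKM in P21 libraries labelled knockout, 7.87 ± 3.15 in wild-type P21, 4.75 ± 1.56 in P1 libraries labelled knockout and 6.55 ± 2.95 in wild-type P1 (SD, n = 3 each).

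The collagen and leukocyte receptors were low. Itga1, a collagen receptor subunit, lay between 2.97 and 5.52 FPKM in all 12 libraries and was the only tested member of its group of 4. It overlaps the protein-coding genes Gm49395 over 66649 bases and Pelo over 1832 bases, both of the same strand. Their means were 0.255 and 4.17 FPKM. How reads shared by overlapping genes were counted is not given, so the values of Itga1 are uncertain. Itgb2, the shared beta subunit of leukocyte integrins, was at 0.892, 1.22 and 2.38 FPKM in P21 libraries labelled knockout and 0.468, 0.467 and 0.428 FPKM in the matching P1 libraries, and rose by 1.00 (SE 0.32; limma adjusted p = 0.042). That call was lost in 12 of 22 alternatives, and the wild-type change was 0.28 (SE 0.32, limma adjusted p = 0.49). Among P1 libraries, only wild-type library 1 reached 1 FPKM. Itgb2 was thus tested only through P21, where it is high, and its call is descriptive. Beside it, 10 macrophage and leukocyte marker genes summed to between 202 and 394 FPKM in P21 libraries labelled knockout and 203 and 563 FPKM in wild-type P21, against 53.0 and 66.1 FPKM in P1 libraries labelled knockout and 41.9 and 78.8 FPKM in wild-type P1. Their part in the Itgb2 change was not tested.

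**Figure D4:**
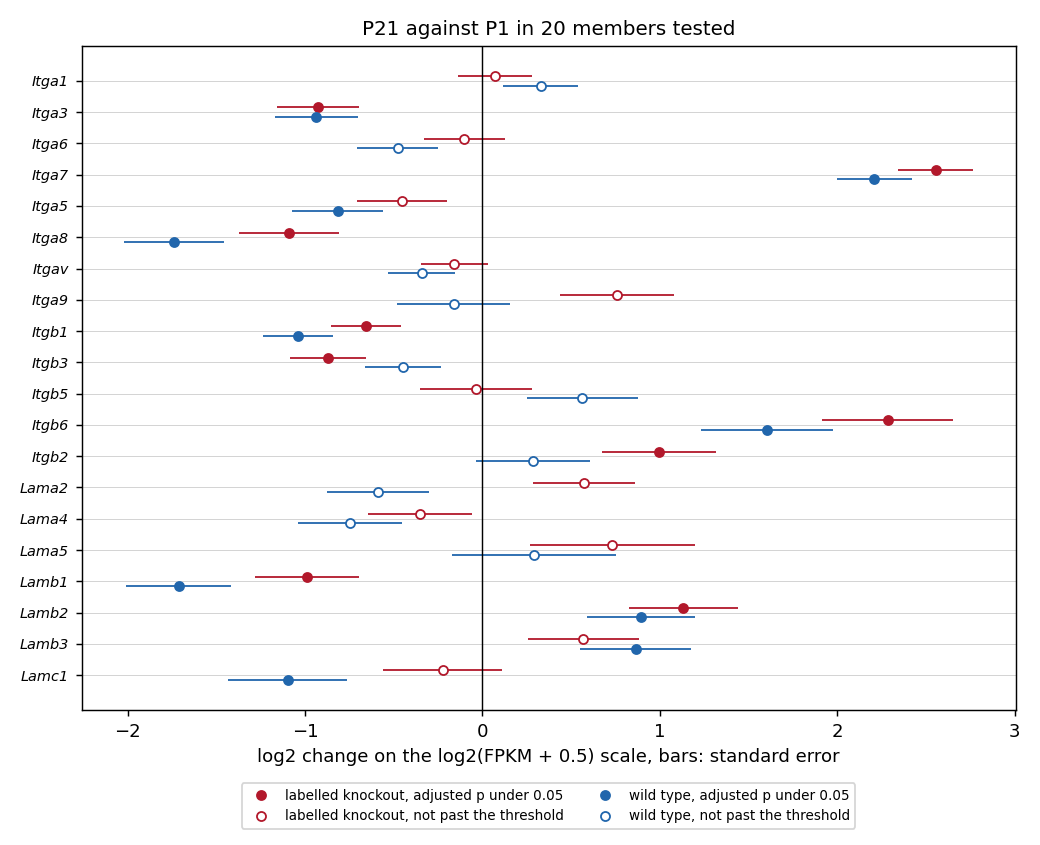
Log2 change of P21 against P1 for 20 of the 21 members tested, in hearts labelled knockout and in wild type, with standard errors and filled points for adjusted p under 0.05. The largest rises are those of Itga7 (2.56 and 2.21) and Itgb6 (2.28 and 1.60), and the largest falls are those of Itga8 (-1.09 and -1.74) and Lamb1 (-0.99 and -1.71). Itgb6 and Itgb2 were tested only through P21 libraries, and Itga8 and Itgb3 only through P1 libraries, where each is high.

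In the comparison of genotypes no member was called at either age. At P21, hearts labelled knockout against wild type called 0 of the 21, where 0.0665% of all genes were called, and 2 members had an unadjusted limma p under 0.05, where 13.8% of all genes did. At P1 it called 0 of the 21, where 0% of all genes were called, and 0 members had an unadjusted p under 0.05, where 0.606% of all genes did. On reads recovered from the table, limma-voom also called 0 members at either age. Median changes of the 21 were 0.11 at P21, against 0.00 for all genes, and -0.16 at P1, against -0.01 for all genes. Adjusted p-values were 0.30 or higher at P21 and 1 at P1. The size of the P21 differences depends on the scale: rescaling to TPM, or without mitochondrial and top 20 genes, put the median of all genes at 0.34 on both scales and that of the 21 members at 0.46 and 0.50, and called 0 members (smallest adjusted p = 0.22 and 0.28).

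At P21, 4 of the 21 tested members did not overlap between genotypes, and these 4 were higher in the libraries labelled knockout. Non-overlap in that direction held for 6.90% of all genes. The 4 are the receptor subunits Itga9 and Itgb1 and the chains Lama2 and Lamc1. Itga9, which binds tenascin and other matrix ligands, was at 18.8, 15.9 and 21.5 FPKM in P21 libraries labelled knockout and 5.89, 13 and 13.8 FPKM in wild-type P21, a difference of 0.83 (SE 0.32; limma adjusted p = 0.30). Lama2 was at 9.49, 10.1 and 12.3 FPKM in P21 libraries labelled knockout and 4.76, 7.0 and 7.62 FPKM in wild-type P21, a difference of 0.69 (SE 0.29; adjusted p = 0.32). For Itgb1 the difference was 0.39 (SE 0.20; adjusted p = 0.40) and for Lamc1 it was 0.55 (SE 0.33; adjusted p = 0.47). Itga9 overlaps Gm10157, a processed pseudogene of the opposite strand, over 343 bases. Without wild-type P21 libraries 1 and 2 the 4 differences were 0.41 for Itga9, 0.45 for Lama2, 0.19 for Itgb1 and 0.16 for Lamc1. After rescaling to TPM they were 1.21 for Itga9, 1.07 for Lama2, 0.76 for Itgb1 and 0.93 for Lamc1, against the median of 0.34 for all genes on that scale. Among members below the level for a test, Itga11, Itgam and Itgax were higher and Itga2 was lower in the P21 libraries labelled knockout without overlap. The 6.90% does not cover genes this low, and no share of them is given, so this is a description only. Itgax rests on 3 to 7 reads in P21 libraries labelled knockout and 0 to 2 in wild-type P21. Itga2 rests on 1 to 12 and 8 to 17 reads in the same order. Itgam values are uncertain, because another gene covers the same positions, as given below.

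Summed fibroblast markers and summed matrix ligands were also higher in the P21 libraries labelled knockout, with no gene of either list called. A list of 8 fibroblast markers summed to 517, 581 and 717 FPKM in P21 libraries labelled knockout and 279, 370 and 472 FPKM in wild-type P21, with no overlap. Its single genes ran from Col1a1, at a difference of 1.61 (limma adjusted p = 0.28), to Pdgfra, at -0.06 (adjusted p = 0.92). A list named matrix ligands of integrins shares 3 genes with it and also holds cell-surface genes such as Vcam1 and Icam1. This second list summed to 611, 516 and 677 FPKM in P21 libraries labelled knockout and 290, 328 and 383 FPKM in wild-type P21. Vtn of that list was lower, at a difference of -0.69 (limma adjusted p = 0.23). Endothelial markers summed to 431, 483 and 415 FPKM in P21 libraries labelled knockout and 1105, 739 and 463 FPKM in wild-type P21, with libraries 1 and 2 the highest. Fabp4 had the highest FPKM of that list, with means of 189 in P21 libraries labelled knockout and 437 in wild-type P21. Single genes ran from Fabp4, at a difference of -1.04 (limma adjusted p = 0.38), to Cdh5, at 0.05 (adjusted p = 0.95), with Kdr at -0.02. No fibroblast or endothelial marker was at 0 throughout a group. The part of these markers in the differences was not tested. Lama2 to Lama4 ratios, which do not depend on the scaling between libraries, were 0.719, 0.853 and 0.830 in P21 libraries labelled knockout and 0.565, 0.439 and 0.537 in wild-type P21, against 0.374, 0.397 and 0.453 in P1 libraries labelled knockout and 0.443, 0.521 and 0.426 in wild-type P1.

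At P1 a single tested member, Itgb2, did not overlap between genotypes, at 0.468, 0.467 and 0.428 FPKM in libraries labelled knockout and 1.20, 0.551 and 0.531 FPKM in wild type. Non-overlap in this direction, lower in hearts labelled knockout, held for 3.44% of all genes. The difference was -0.36 (SE 0.32; limma adjusted p = 1) and rests on 20 to 68 reads per library.

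The difference of the knockout effects, P21 minus P1, called 0 of the 21 members and 0% of all genes, and 1 member had an unadjusted limma p under 0.05, where 6.94% of all genes did. The difference was positive for 17 of the 21, with a median of 0.38 against 0.02 for all genes. The share of all genes that were positive is not given, so the 17 are a description only. Rescaling to TPM, or without mitochondrial and top 20 genes, moved the median of all genes in this contrast by 0.43 and 0.42. The smallest p among the members was that of Lama2, at 1.16 (SE 0.41; limma adjusted p = 0.69). An age change called in one genotype alone, as for Itgb3, Itgb2, Itga5, Lamb3 and Lamc1, is therefore not shown to differ between genotypes.

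**Figure D5:**
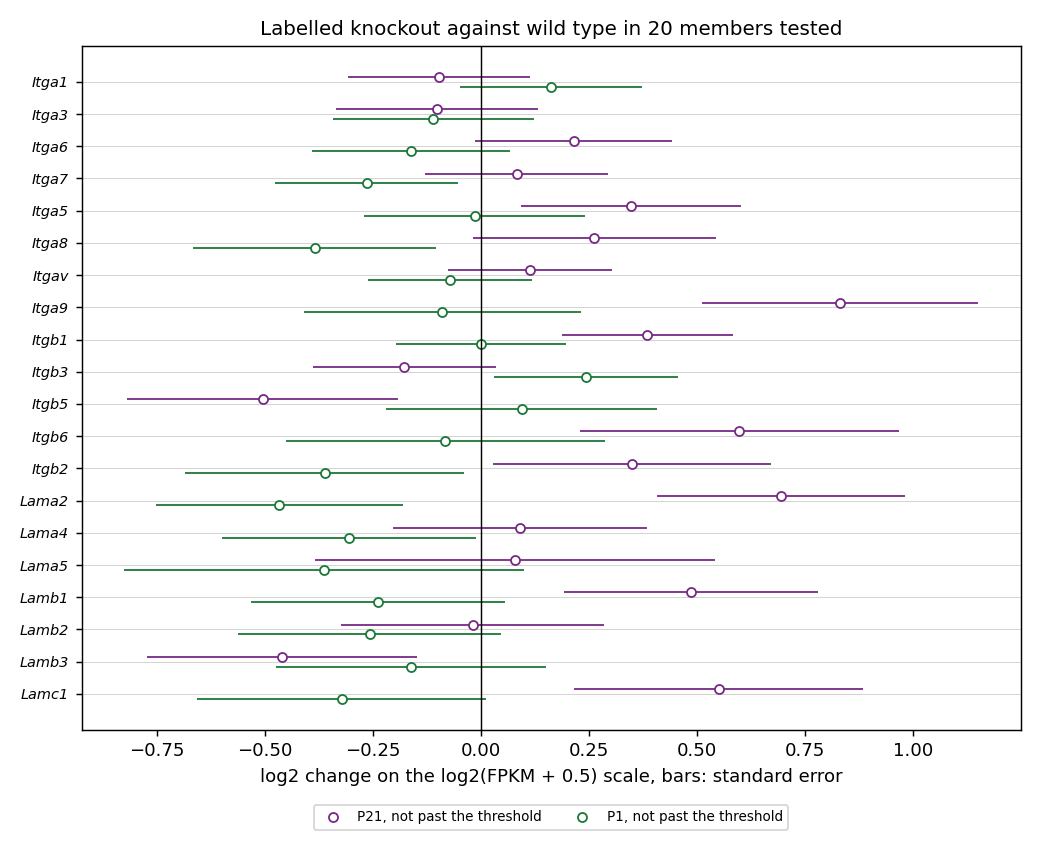
Log2 difference between hearts labelled knockout and wild type in 20 of the 21 members tested, at P21 and at P1, with standard errors and open points since no adjusted p was under 0.05. At P21 the differences run from -0.51 (Itgb5) to 0.83 (Itga9), and at P1 from -0.47 (Lama2) to 0.24 (Itgb3).

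Libraries within the P1 groups also differed in laminin RNA. Library 2 was the highest of the P1 libraries labelled knockout, and library 3 the lowest of the wild-type P1 libraries, for 7 of the 8 laminin chains tested. Both held for 20.8% of all genes tested. Fibroblast markers summed to 351, 667 and 557 FPKM in P1 libraries labelled knockout and 725, 592 and 512 FPKM in wild-type P1, so library 2 was highest and library 3 lowest there too. This pattern was chosen after its values were seen, and the part of the markers in it was not tested.

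The remaining 16 members did not reach the level for a test. Fitted without a filter on low values, 2 of them were called with age in hearts labelled knockout and 1 in wild type, where 9.03% and 19.2% of all 29977 genes in that fit were called. Itga2, a collagen receptor subunit of platelets and epithelia, averaged 0.0797 ± 0.0631 FPKM in P21 libraries labelled knockout, 0.180 ± 0.0355 in wild-type P21, 0.712 ± 0.0824 in P1 libraries labelled knockout and 0.912 ± 0.0818 in wild-type P1 (SD, n = 3 each). It fell in both genotypes, with changes of -1.07 (limma adjusted p = 0.0037) in hearts labelled knockout and -1.05 (adjusted p = 0.0023; 0.018 without wild-type P21 libraries 1 and 2) in wild type. Itga11, a collagen receptor subunit of fibroblasts, was at 0.730, 0.892 and 1.33 FPKM in P21 libraries labelled knockout, 0.277, 0.0667 and 0.715 FPKM in wild-type P21, 0.0242, 0.241 and 0.0255 FPKM in P1 libraries labelled knockout and 0.389, 0.463 and 0.131 FPKM in wild-type P1. It rose with age in hearts labelled knockout by 1.31 (SE 0.31; adjusted p = 0.024), and its P21 genotype groups did not overlap, with a difference of 0.85 (SE 0.31; adjusted p = 0.49).

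The other 14 were not called. They are the collagen receptor subunit Itga10; the platelet subunit Itga2b; Itga4, which binds VCAM1 and fibronectin; the leukocyte subunits Itgad, Itgae, Itgal, Itgam, Itgax and Itgb7; Itgb4, the partner of Itga6 in hemidesmosomes; Itgb8, a further partner of Itgav; and the laminin chains Lama1, Lama3 and Lamc3. Their group means lay under 1 FPKM in all 4 groups. Lama1, a chain of embryonic basement membrane, was listed at 0 in all 3 P21 libraries labelled knockout and in 2 wild-type P21 libraries. Itgad overlaps Cox6a2, a heart muscle gene on the opposite strand with a mean of 2709 FPKM, over 953 bases, so its low values are uncertain. Itgam overlaps Gm49368, a protein-coding gene of the same strand listed at 0, over 55809 bases. Itga10 overlaps Gm42957, also of the same strand and listed at 0, over 7518 bases. How reads shared by overlapping genes were counted is not given, so the low values of Itgam and Itga10 are uncertain too.

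Genes that work with integrins and laminins were read in 3 lists, whose counts stand against 11.8% of all genes tested called higher and 13.2% lower with age in hearts labelled knockout, and 21.5% higher and 23.3% lower in wild type. Of 28 integrin adaptors and kinases tested, 5 rose and 6 fell with age in hearts labelled knockout, and 6 rose and 9 fell in wild type (4 and 3 without wild-type P21 libraries 1 and 2). Lims2, a PINCH adaptor of the integrin-linked kinase complex, rose by 3.24 (SE 0.28; limma adjusted p = 2.4e-05) in hearts labelled knockout and by 3.74 (SE 0.28; adjusted p = 6.8e-06) in wild type. Itgb1bp2, the muscle protein melusin that binds the Itgb1 tail, rose by 2.12 (SE 0.25) and 2.22 (SE 0.25) in the same order. Tns2, a tensin, rose by 1.74 and 1.78. Ptk2, the focal adhesion kinase, fell by 0.70 on the log2 scale in hearts labelled knockout (adjusted p = 0.013), and Sharpin, an integrin inhibitor, rose by 1.06 in wild type (adjusted p = 0.0018). Without wild-type P21 libraries 1 and 2 the wild-type rises were 3.29 for Lims2, 1.92 for Itgb1bp2, 1.87 for Tns2 and 0.74 for Sharpin.

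Of 29 basement membrane genes and laminin partners tested, 6 rose and 4 fell with age in hearts labelled knockout, and 6 rose and 7 fell in wild type (3 and 3 without wild-type P21 libraries 1 and 2). Col18a1, a basement membrane collagen, changed by -2.62 (SE 0.34) in hearts labelled knockout and -3.43 (SE 0.34) in wild type, and the netrin Ntn4 by -1.04 (SE 0.20) and -1.89 (SE 0.20). Sgca, a sarcoglycan of the dystrophin complex, rose by 1.58 (SE 0.24) and 2.03 (SE 0.24). Col4a4, a collagen IV chain, rose by 1.59 (SE 0.23) in hearts labelled knockout, and Smoc1, a matrix calcium-binding protein, changed by -1.80 (SE 0.35) in wild type. Without wild-type P21 libraries 1 and 2 the wild-type changes were -2.79 for Col18a1, -1.67 for Ntn4, 1.44 for Sgca and -2.23 for Smoc1.

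Of 22 matrix ligands tested, 1 rose and 7 fell with age in hearts labelled knockout, and 1 rose and 11 fell in wild type (1 and 7 without wild-type P21 libraries 1 and 2). Besides matrix proteins, the genes tested in this list include the cell-surface genes Vcam1, Icam1, Lrrc32 and Nrros. Vtn, vitronectin, rose by 3.86 (SE 0.21) in hearts labelled knockout and 3.95 (SE 0.21) in wild type. Postn, periostin, changed by -2.02 (SE 0.42) and -4.09 (SE 0.42), and Vcam1, a ligand of Itga4, by -1.51 (SE 0.25) and -2.02 (SE 0.25). Fn1, the fibronectin bound by Itga5 and Itga8, changed by -1.84 (SE 0.41) and -2.70 (SE 0.41), and Ccn3, a matricellular protein, by -2.33 (SE 0.37) and -2.28 (SE 0.37). The median age change of this list was -0.24 in hearts labelled knockout and -1.13 in wild type, against -0.02 and -0.04 for all genes. Without wild-type P21 libraries 1 and 2 the wild-type median was -0.77, and the changes were 3.60 for Vtn, -3.41 for Postn, -1.69 for Vcam1, -2.55 for Fn1 and -1.80 for Ccn3. None of the 3 lists had a gene called between genotypes at either age.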

How the data were processed

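The authors deposited a table of FPKM values for 56748 genes in 12 libraries. The tools named per the submitters' processing notes are TopHat2 2.0.13, featureCounts of Subread, edgeR and FastQC, with genome builds GRCh38, mm10 and GRCm39 named without a role. Which build the table's positions follow is not given in the sources used, so they are printed as they stand and were not joined to sequence. Multiplied by gene length, 100% of values fell within 0.05 of a whole read, which gave reads per library; the recovered reads served an alternative. Columns were matched to samples by library name.

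Genes with at least 1 FPKM in at least 3 libraries (13537) were fitted as log2(FPKM + 0.5) with 1 mean per group over all 4 groups in limma 3.58.1 (R 4.3.3; trend, robust), with Benjamini-Hochberg adjustment over all of them, after a test on simulated data. Fold changes on this scale understate the change of low genes. The members, lists and markers were chosen with earlier results of these data known. One member is not reported here, the others are named, those called get full statistics, and other lists give up to 4 called genes of smallest adjusted p per contrast. For 3 list symbols the RefSeq synonym was used (Ccn1, Ccn2, Ccn3). Col1a1, Col1a2 and Col3a1 stand in both the fibroblast and the matrix ligand lists.

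The alternatives were other pseudocounts, no filter, rescaling to TPM, rescaling without mitochondrial and top 20 genes, the groups of a contrast alone, a replicate block, library weights, voom on recovered reads, no wild-type P21 libraries 1 and 2, and each library left out.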

Additional observations from a re-analysis of the deposited data

How the results depend on the processing

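Alternatives numbered 22, and 19 age results of single members were followed through them. Of 418 refits, 351 kept the direction and the call, 63 lost the call and 4 turned the direction. Many could not turn it: leaving out libraries of the other genotype, or fitting the contrast groups alone, keeps the change and alters only the spread estimate. The counts of kept and turned directions are therefore no measure of stability. Itga7, Itgb6 (both genotypes), Itga8, Itgb1, Lamb1 (wild type) and Itgb3 (labelled knockout) kept their calls in all 22. Of these, Itgb6, Itga8 and Itgb3 were tested only through the age where they are high, so their calls are descriptive. Rescaling to TPM moved the median change with age of all genes by -1.06 in wild type and -0.63 in hearts labelled knockout, and rescaling without mitochondrial and top 20 genes by -0.85 and -0.42. Lamb2 and Lamb3 turned negative in wild type under both: Lamb2 was at -0.24 (TPM) and -0.10, or 0.86 and 0.78 above the median of all genes, and Lamb3 at -0.16 and -0.025, or 0.94 and 0.86 above it. Under either rescaling, members called higher were 2 in hearts labelled knockout and 2 in wild type, and members called lower in wild type were 13. The median of all genes fell under these rescalings too. For these counts and those of members called in the other alternatives below, no share of all genes is given. They show how far the calls vary between refits and are not a result about the members. Members called higher in wild type were 2 also with no filter, the groups of the contrast alone or library weights. Without wild-type P21 libraries 1 and 2, where the lone remaining library is assumed to vary like the others, wild type had 2 called higher and 3 called lower, all 5 among the 10 above.

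With 1 library left out, members called higher with age were 2 to 5 in hearts labelled knockout and 2 to 4 in wild type, and members called lower were 1 to 5 and 4 to 8. The count called lower in hearts labelled knockout was 1 without P1 library 2, 2 without P21 library 2, and 3 without P1 library 1 or P21 library 1. The count called higher there was 2 without P1 library 1 or 3 or P21 library 3, and in wild type 2 without P1 library 2 or P21 library 1. Rescaling moved the median P21 genotype difference of all genes by 0.33 (TPM) and 0.34. One alternative, Itga2 with no filter and without wild-type P21 libraries 1 and 2, was chosen after seeing the data. Between genotypes at P21, 0 to 1 member was called higher and 0 to 1 lower; Itgb6 and Itgb5 were the 2, without wild-type P21 library 3. The Itga3 and Itga8 calls in hearts labelled knockout were lost without P1 library 2 or P21 library 2 (adjusted p up to 0.062 and 0.073), the Lamb1 call without library 1 or 2 of either age (up to 0.12) or with no filter (0.070), and the Lamb2 call without library 1 or 3 of either age. In wild type, the Lamb2 call was lost without P1 library 2 or 3 or P21 library 1 or 3, and that of Lamb3, with Itgb2 in hearts labelled knockout, was lost in most alternatives. The Lamc1 call in wild type was lost without wild-type P1 library 1 or 2 or P21 library 1, and the Itga5 call without P1 library 1 or 2 or P21 library 2.

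With the replicate block, members called were 3 higher and 5 lower with age in hearts labelled knockout, and 3 higher and 6 lower in wild type. Same-numbered libraries of the 2 genotypes correlated in their deviations at -0.15, 0.16 and 0.13 at P1 and 0.03, 0.49 and 0.35 at P21, so the numbers were not taken as pairs. Low members such as Itgb6 at P1 are limited by reads.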
